A study of Mus musculus with 9 samples.

Results

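The cytosolic ribosomal protein genes encode the proteins of the ribosome that translates nuclear messages, and their transcripts were followed in mouse bone marrow-derived mast cells, effector cells of allergy, at rest and after activation through the IgE receptor. Members were all rows whose symbol starts with Rpl or Rps and a digit, plus Rplp0, Rplp1, Rplp2 and Rpsa, without symbols containing -ps, the Rps6k kinases and Rps19bp1. This gave 89 of 15109 genes: 77 core genes, 46 of the large and 31 of the small subunit, and 12 paralogs or retrocopies (Rpl3l, Rpl6l, Rpl7l1, Rpl22l1, Rpl27rt, Rpl36al, Rpl37rt, Rps3a2, Rps3a3, Rps4l, Rps27l and Rps27rt). The rule set aside 87 rows of named ribosomal protein pseudogenes. All cells were grown from wild-type C57BL/6 bone marrow, for 4 weeks or longer, with 20% serum and with 30% of medium conditioned by WEHI-3 cells, which secrete interleukin 3. The Taxinine group (n = 3) was sensitised with IgE against dinitrophenyl (DNP), given taxinine, a taxane from yew, for 1 h and then stimulated with DNP-BSA, the antigen that crosslinks the IgE receptor. The BSA group (n = 3) was sensitised and stimulated without taxinine. The Control group (n = 3) was labelled untreated. No taxinine dose, vehicle, antigen exposure time or animal age is given, and no source says whether the biological replicates came from separate mice, so the spread on which the p-values rest may be technical.

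Total counts per library ranged from 8975371 to 14116976. All 7 mast cell markers fixed as a list were measured, and their summed level was 39768 to 40777 CPM (counts divided by a scaled library total) in Taxinine, 39937 to 41675 in BSA and 37687 to 38820 in Control libraries. The sum of 4 macrophage markers was 62.5 to 65.0 CPM in Taxinine, 65.7 to 71.5 in BSA and 59.2 to 60.5 in Control libraries. The sum of 2 basophil markers, genes that mast cells also express, was 541 to 565, 602 to 626 and 534 to 591 CPM in Taxinine, BSA and Control libraries. Only 1 of 4 listed neutrophil markers and 1 of 3 listed B cell markers were measured, and both stayed below 1 CPM in every library. None of the 3 T cell and 3 erythroid markers listed was among the 15109 genes, so no level can be given for them. On this scaled CPM the mast cell, macrophage and basophil sums were all higher in every BSA than in every Control library. Single mast cell markers moved both ways: 3 of the 7 were called higher and 1 lower in BSA (edgeR, adjusted p under 0.05). Hdc had 1208 ± 44.0 CPM in BSA against 195 ± 1.46 in Control, and Ms4a2, the 1 called lower, 1713 ± 53.9 against 2179 ± 80.5. The sums were not compared under other scalings, and their part in the results below was not tested.

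Each ribosome holds 1 copy of nearly every ribosomal protein, and cells keep the supply of the proteins matched. In mammals their messages begin with a C followed by a run of pyrimidines, the 5′ terminal oligopyrimidine (TOP) motif, through which the kinase complex mTORC1 and the protein Larp1 control their translation. The stalk proteins Rplp0, Rplp1 and Rplp2 recruit elongation factors, Rps6 is phosphorylated downstream of mTORC1, and Rpl5 and Rpl11 bind 5S ribosomal RNA and can restrain Mdm2, the ligase that degrades p53. Many of the genes also carry small nucleolar RNAs in their introns. Of the 77 core genes, which lie on 19 chromosomes, 32 (41.6%) contained an annotated small noncoding RNA, against 7.5% of the other genes of the table.

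Starts of genes named in the results, and of Rpl7a as an example of a long run, are shown. The pyrimidine run at the start is the sequence feature for which the family is known. RefSeq promoter sequences on GRCm38.p6 were found for 64 of the 89 members, and each window covers the 40 bases before and 20 bases from the start site, 5′ to 3′ on the transcribed strand. Capitals mark the longest uninterrupted run of C or T where it reaches 8 bases. The windows are chr8:123102310-123102369 on the plus strand for Rpl13, a protein of the large subunit; chr7:141447611-141447670, plus, for Rplp2; chr4:86857348-86857407, minus, for Rps6; chr2:26910767-26910826, plus, for Rpl7a, which has a long run; chr17:46782637-46782696, minus, for Rpl7l1; and chr5:115559427-115559486, plus, for Rplp0.
Rpl13: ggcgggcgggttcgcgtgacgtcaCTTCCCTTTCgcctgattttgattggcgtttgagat
Rplp2: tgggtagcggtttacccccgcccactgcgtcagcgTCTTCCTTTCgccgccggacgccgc
Rps6: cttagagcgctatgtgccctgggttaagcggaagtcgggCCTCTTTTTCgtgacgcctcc
Rpl7a: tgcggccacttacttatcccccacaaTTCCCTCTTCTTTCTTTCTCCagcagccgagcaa
Rpl7l1: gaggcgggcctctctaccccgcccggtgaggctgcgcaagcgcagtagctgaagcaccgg
Rplp0: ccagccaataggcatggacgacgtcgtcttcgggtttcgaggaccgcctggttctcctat

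Runs of at least 8 bases of C or T, at any position in the window, were found in 38 of the 76 windows of members. Some genes had more than 1 start. The share was 23.3% among the 13505 windows of 10603 other genes. On the opposite strand the shares were 14.5% and 23.6%. The run was 10 bases long in Rpl13, Rplp2 and Rps6 and 21 bases in Rpl7a. Rplp0 and Rpl7l1 held no run of that length in this window, which says nothing of the start used in these cells.

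Levels were compared between genes as CPM per kilobase of the principal transcript in GENCODE M21 (all exons for 5 genes without one). Rpl10, a large-subunit protein close to the peptidyl transferase centre, had the highest level, 1609 ± 51.6 CPM per kb in Taxinine, 1683 ± 55.0 in BSA and 1482 ± 74.7 in Control libraries (SD, n = 3 each). Rplp1 followed at 1517 ± 61.8, 1636 ± 138 and 1470 ± 119 in Taxinine, BSA and Control, so the order of these neighbours lies within their spread. Rps9, Rps18 and Rps4x completed the 5 highest, with means over the 9 libraries of 1317 ± 86.8, 1267 ± 74.6 and 1230 ± 63.9 CPM per kb. The first 73 ranks were all core genes, with means down to 271 CPM per kb for Rpl37.

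**Figure D1:**
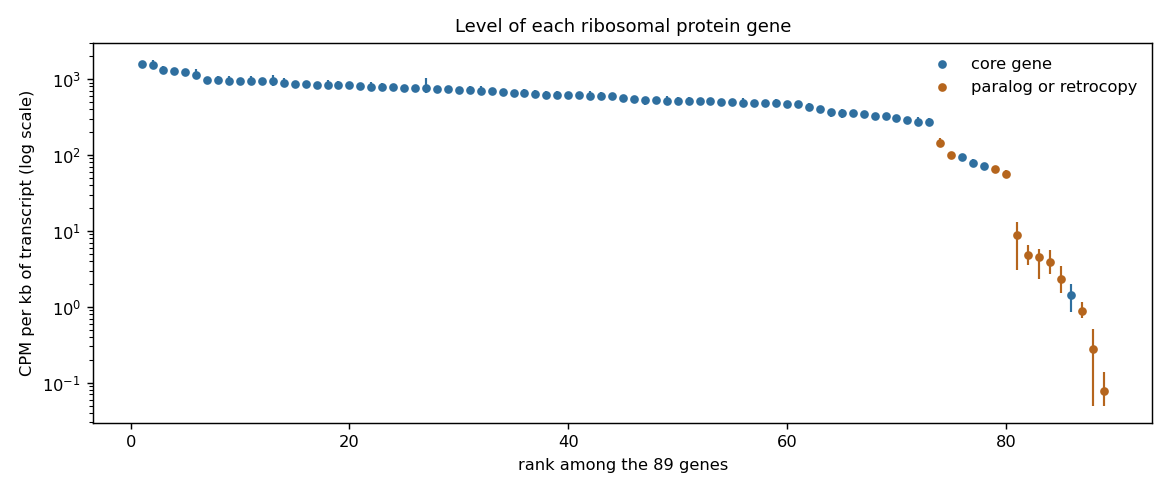
Mean level of each of the 89 genes over the 9 libraries, in CPM per kb of transcript on a log scale, by rank; vertical lines run from the lowest to the highest library, and libraries at 0 are drawn at the lower edge. The first 73 ranks are core genes between 271 and 1591 CPM per kb, while the paralogs and retrocopies fill most of the ranks below.

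Only 4 core genes were lower than that, and they are named here after their values were seen, apart from Rpl24, which is among the 5 lowest members. Rps20 averaged 94.5 CPM per kb, calculated on an annotated transcript of 3706 bases, Rpl23a 78.6 and Rpl35 72.1. Rpl24 had 5, 13 and 15 counts in Taxinine, 8, 16 and 15 in BSA and 13, 14 and 12 in Control replicates 1 to 3, and 71.5% of its exon bases are shared on the same strand with the annotated gene Gm28037. How the authors counted reads shared by genes is not stated in the sources used here, so its level is uncertain. The same caution holds for Rps10, which shares 91.6% of its exon bases with RPS10-NUDT3, and for Rpl36al (63.1%) and Rpl13a (59.3%), while 59 core genes have at least 1 named pseudogene with which reads could be exchanged.

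Among the paralogs, Rpl36al, a second gene for the Rpl36a protein, had 140 ± 7.89 CPM per kb in Taxinine, 158 ± 8.19 in BSA and 136 ± 4.27 in Control libraries, below Rpl36a itself in every group. Rps27l, a close relative of Rps27, had 93.3 ± 5.33, 106 ± 3.70 and 100.1 ± 10.4 CPM per kb in Taxinine, BSA and Control. Rpl7l1, whose yeast relative works in assembly of the large subunit, had 65.3 ± 1.61, 64.1 ± 2.75 and 65.8 ± 2.40, and Rpl22l1, the relative of Rpl22, had 55.7 ± 2.81, 60.9 ± 2.25 and 54.3 ± 4.25 in the same order. These paralogs were thus measured at much lower levels than their core partners in all groups. Rpl3l, the form of Rpl3 found in striated muscle, had at most 2 counts in any library. Together the 12 paralogs and retrocopies took 0.632 to 0.690% of the family's counts, and 9 members (8 of these 12, and Rpl24) had a mean of fewer than 100 counts per library. The pseudogene rows left out by the rule held counts equal to 0.317 to 0.413% of the family's.

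The family took 3.73, 3.76 and 3.89% of all counts in Taxinine, 4.01, 3.79 and 4.14% in BSA and 3.98, 4.41 and 4.08% in Control replicates 1 to 3. The exact 95% binomial interval of each share extends by at most 0.0124 percentage points, so the spread between replicates was far larger than counting error. The Taxinine shares (3.79 ± 0.0844%) lay below every Control share (4.16 ± 0.229%), and the BSA shares (3.98 ± 0.176%) overlapped both groups. Large-subunit genes held 56.3 to 56.4% of the family's counts in Taxinine, 56.3 to 56.4% in BSA and 56.2 to 56.3% in Control libraries, so the balance between the subunits moved by less than 1 percentage point. In RNA from bulk cultures, fewer cells of a type and less RNA per cell cannot be told apart.

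**Figure D2:**
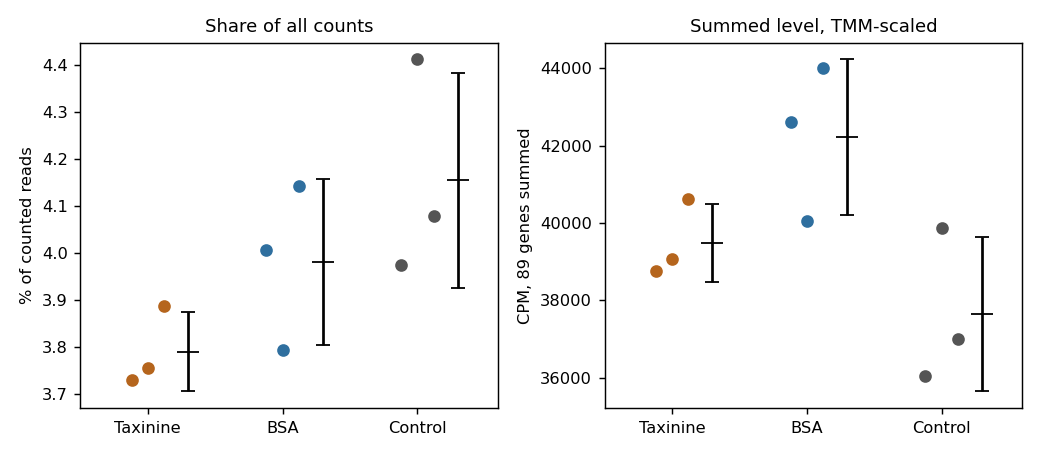
Left, percentage of all counted reads that fell on the 89 genes; right, their summed level in CPM after TMM scaling, for the 3 Taxinine, 3 BSA and 3 Control libraries (points), with mean and SD beside them. The share is lowest in Taxinine and highest in Control, and the TMM-scaled sum is highest in BSA and lowest in Control, so the order of the groups depends on the scaling.

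Shares of the total depend on what else was transcribed. The 100 most abundant other genes took 24.7 ± 0.123% of counts in Taxinine, 24.8 ± 0.180% in BSA and 22.1 ± 0.147% in Control libraries (SD, n = 3 each). TMM scaling (trimmed mean of M values), which sets the typical gene level between libraries, gave factors of 0.957 to 0.963 in Taxinine, 0.941 to 0.947 in BSA and 1.10 to 1.11 in Control. On that scale the family summed to 38745, 39076 and 40618 CPM in Taxinine, 42605, 40048 and 44014 in BSA and 36032, 39863 and 37008 in Control replicates 1 to 3. The BSA libraries were now above all Control libraries, while Taxinine libraries overlapped both other groups.

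The first comparison sets antigen-activated against untreated mast cells and does not separate sensitisation from crosslinking. Under TMM scaling, 68 of the 89 members were called higher and 1 lower in BSA (edgeR's quasi-likelihood test, adjusted p under 0.05 over 15109 genes), while 34.0% of all genes were called, 16.2% higher and 17.8% lower. Under total count scaling the counts were 0 higher and 13 lower, and after quantile normalisation 3 higher and 55 lower, so the direction of the family turned with these scalings. DESeq2's size factors, which like TMM centre the typical gene, gave 70 and 1. Of all 15109 genes, 1081 were called higher and 6896 lower under total count scaling, and 1898 and 3126 after quantile normalisation. The median log2 fold change of the members was 0.16 (quartiles 0.14 and 0.19) against 0.00 for all genes under TMM scaling. It was -0.07 against -0.23 for all genes under total count scaling, so in both fits the members lay 0.16 above the median gene. After quantile normalisation it was -0.18 against -0.02, which is 0.16 below the median gene. Among the 2667 other genes with a mean of at least 1000 counts, a set chosen after the data were seen, 42.8% were called higher and 12.4% lower under TMM scaling.

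The core genes moved as a narrow block on this scale: all 77 had a positive log2 fold change, between 0.10 and 0.34, and 67 were called, whereas 74 were below 0 under total count scaling and 70 after quantile normalisation. Rplp0 had 1108, 1164 and 1178 CPM in Taxinine, 1196, 1112 and 1270 in BSA and 993, 1076 and 1026 in Control replicates 1 to 3. Every BSA value lay above every Control value, and the log2 fold change of BSA over Control was 0.21 ± 0.04 (SE; edgeR adjusted p = 0.0001), but -0.02 under total count scaling. Rps6 had 473, 445 and 485 CPM in BSA against 403, 444 and 405 in Control, groups that did not overlap, with a log2 fold change of 0.16 ± 0.04 (edgeR adjusted p = 0.00208) that was -0.06 under total count scaling. Rpl10 gave 0.18 ± 0.04 (edgeR adjusted p = 0.000275; -0.04 under total count scaling). Without overlap between the groups under TMM scaling, 41 members (46.1%) were higher and 1 (1.12%) lower in BSA. Of all genes, 42.9% did not overlap, 20.2% higher and 22.7% lower. Of the 2667 other genes with a mean of at least 1000 counts, 60.0% did not overlap, 1222 being higher and 378 lower.

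Only 1 of the 12 paralogs and retrocopies was called higher, Rpl36al, with 82.8, 79.3 and 87.8 CPM in BSA against 69.5, 74.0 and 71.1 in Control (log2 fold change 0.22 ± 0.05, edgeR adjusted p = 0.00144; -0.01 under total count scaling). The 1 member called lower, the retrocopy Rpl27rt, had 0, 5 and 1 counts in BSA against 7, 13 and 11 in Control. The groups did not overlap, but at these counts the call (log2 fold change -1.98 ± 0.67, edgeR adjusted p = 0.0138) was lost without Control replicate 2 (0.0517), BSA replicate 1 (0.111) or BSA replicate 3 (0.0574). Rpl13 had the largest rise among the core genes called: 678, 656 and 802 CPM in BSA against 543, 621 and 518 in Control, a log2 fold change of 0.34 ± 0.05 (edgeR adjusted p = 1.27e-06). It stayed positive but was not called under total count scaling (0.12, adjusted p = 0.0666) and was -0.08 after quantile normalisation.

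**Figure D3:**
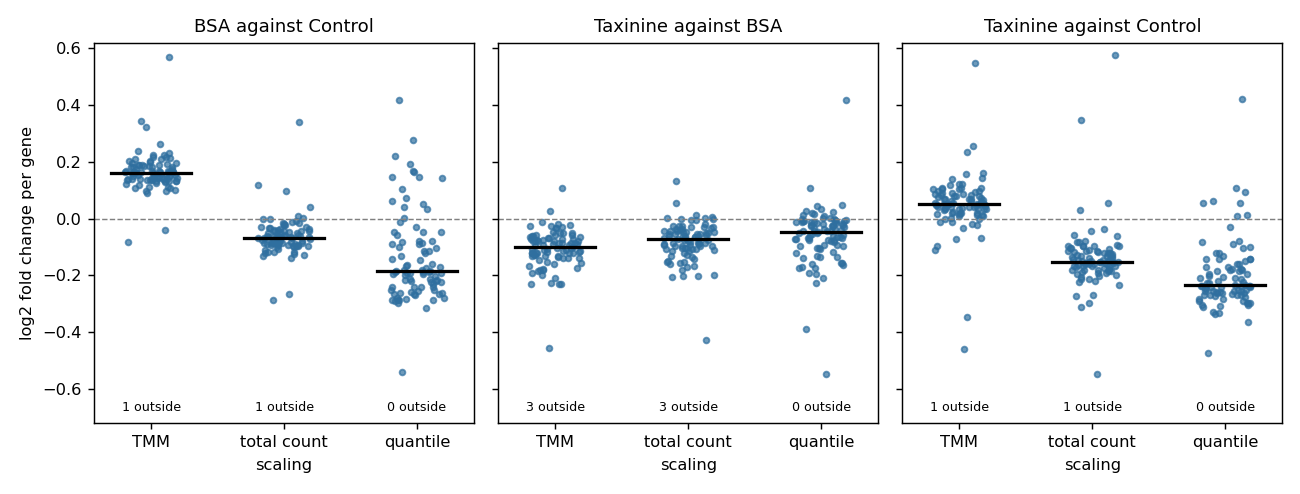
Log2 fold change of each of the 89 genes (points) and their median (bars) in the 3 comparisons under TMM, total count and quantile scaling; the number of genes beyond the plotted values is given at the bottom. Under TMM scaling most genes lie above 0 in BSA against Control and in Taxinine against Control and below 0 in Taxinine against BSA, and both comparisons with Control turn below 0 under total count and quantile scaling.

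The second comparison asks what pretreatment with taxinine changed in activated cells, without a vehicle control. Under TMM scaling 0 members were called higher and 15 lower in Taxinine (edgeR, adjusted p under 0.05), or 16.9% of the members, while 6.98% of all genes were called, 2.86% higher and 4.12% lower, and 11.3% of the other genes with at least 1000 counts were called lower. At an unadjusted p under 0.05, 1 member was higher and 44 were lower, and DESeq2 called 0 and 10. Their median log2 fold change was -0.10, against 0.00 for all genes, and all 77 core genes were below 0. The direction held under total count scaling (10 lower, median -0.07) and quantile normalisation (4 lower, median -0.05). The count rested on single libraries: it was 34 without BSA replicate 2, 25 without Control replicate 2, 5 without Taxinine replicate 2 and 4 without BSA replicate 3 or Taxinine replicate 1. Groups did not overlap in 32 members, all lower in Taxinine, or 36.0% of the family. Of all genes, 23.9% did not overlap, 11.5% higher and 12.4% lower. Of the 2667 other genes with a mean of at least 1000 counts, 38.1% did not overlap, 374 being higher and 641 lower.

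Rpl13 was the most changed core gene in this comparison too, with 506, 539 and 512 CPM in Taxinine against 678, 656 and 802 CPM in BSA. Every Taxinine library lay below every BSA library, and the log2 fold change of -0.45 ± 0.05 (edgeR adjusted p = 6.87e-08) was called in all 9 fits that left out 1 library. Rps2, a small-subunit protein at the decoding side and named after its values were seen, had 876, 925 and 897 CPM in Taxinine against 1044, 1008 and 1111 in BSA, groups that did not overlap (-0.23 ± 0.04, edgeR adjusted p = 0.000199). The stalk protein gene Rplp2 had 373, 364 and 371 CPM in Taxinine against 423, 397 and 481 in BSA (-0.23 ± 0.05, edgeR adjusted p = 0.00371), without overlap, and its call was lost without BSA replicate 3 (-0.15, edgeR adjusted p = 0.093), with DESeq2's Wald test (adjusted p = 0.0966) and after quantile normalisation (-0.17, limma adjusted p = 0.0656). Its stalk partners were not called: Rplp0 had an adjusted p of 0.547 and Rplp1 of 0.207 by edgeR. The retrocopy Rps4l had 26, 27 and 37 counts in Taxinine against 49, 67 and 50 in BSA (-0.70 ± 0.21, edgeR adjusted p = 0.0298). Its call was lost with DESeq2's Wald test (adjusted p = 0.0732) and, in edgeR, without BSA replicate 2 (0.137), BSA replicate 3 (0.0742) or Taxinine replicate 1 (0.0577), 2 (0.126) or 3 (0.0936).

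Against Control, with which the first comparison shares its Control libraries and the second its Taxinine libraries, the Taxinine group had 10 members called higher and 0 lower under TMM scaling, while 33.1% of all genes were called, 15.9% higher and 17.2% lower. At an unadjusted p under 0.05, 18 were higher and 2 lower by edgeR, and DESeq2 called 9 and 0. The median of the members was 0.05, against -0.01 for all genes. With total counts 0 were higher and 68 lower (median -0.15, against -0.21 for all genes). After quantile normalisation 1 was higher and 70 lower (median -0.23, against -0.02 for all genes). Of all 15109 genes, 1105 were called higher and 6281 lower with total counts, and 1969 and 3157 after quantile normalisation. Groups did not overlap in 9 members that were higher and 1 that was lower under TMM scaling, or 11.2% of the family, while 43.7% of all genes did not overlap, 20.9% higher and 22.8% lower. The 10 members called higher under TMM scaling, 11.2% of the family, included Rplp0, Rps3, Rpl4, Rpl10, Rpl3, Rpl7 and Rps4x. Of the 2667 other genes with a mean of at least 1000 counts, 40.8% were called higher and 15.0% lower. Rpl4, which lines the exit tunnel for new proteins, had 1451, 1491 and 1538 CPM in Taxinine against 1308, 1397 and 1355 in Control, without overlap (0.14 ± 0.04, edgeR adjusted p = 0.00342; -0.06 under total count scaling). Rplp0 gave 0.16 ± 0.04 (edgeR adjusted p = 0.00314; -0.04 under total count scaling). The count of 10 was 28 without Control replicate 2, 4 without Taxinine replicate 2, 3 without Control replicate 3 and 2 without Control replicate 1 or Taxinine replicate 3.

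Because the family's direction turned with the scaling, its composition was also tested with the summed counts of the 89 genes as the library size, so that a fold change is relative to the family itself. On this scale, which centres the family by construction, few members were called. In BSA against Control 1 member was called higher and 2 lower (edgeR, adjusted over 15109 genes, of which 37.0% were called on this scale, 7.14% higher and 29.8% lower). In Taxinine against BSA 0 were higher and 1 lower, where 3.81% of all genes were called, 3.10% higher and 0.708% lower. In Taxinine against Control 0 were higher and 1 lower, where 27.7% of all genes were called, 8.56% higher and 19.1% lower. At an unadjusted p under 0.05 these counts were 1 and 5 members in Taxinine against BSA and 0 and 3 in Taxinine against Control. The counts changed with single libraries: in BSA against Control 0 were higher without Control replicate 3 or BSA replicate 3, and 0 lower without BSA replicate 1 and 1 lower without Control replicate 3 or BSA replicate 3. In Taxinine against BSA 1 was higher without BSA replicate 2, and in Taxinine against Control 0 were lower without Control replicate 2 or Taxinine replicate 1 or 3, and 2 without BSA replicate 2. Groups did not overlap on this scale in 9 members that were higher and 8 that were lower in BSA against Control (19.1% of the family, 44.9% of all genes), 9 and 14 in Taxinine against BSA (25.8% and 25.9%) and 10 and 14 in Taxinine against Control (27.0% and 40.2%). The quartiles of the core genes' log2 fold changes were -0.03 and 0.02 in BSA against Control, -0.04 and 0.02 in Taxinine against BSA and -0.04 and 0.02 in Taxinine against Control, with a median SE of 0.05 in each.

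**Figure D4:**
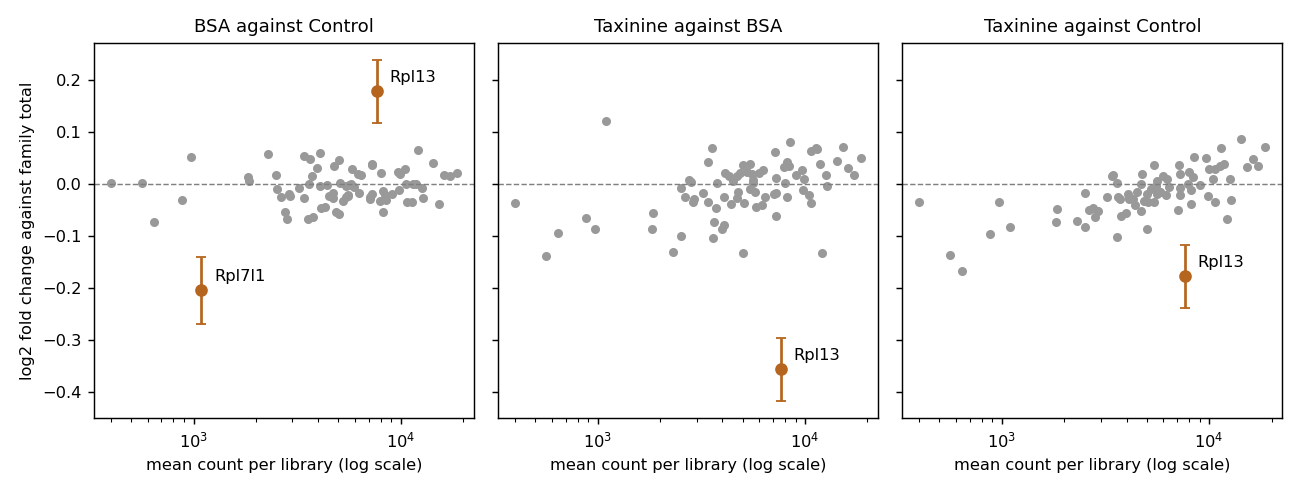
Log2 fold change relative to the family's summed counts against mean count per library (log scale) for the 80 members with at least 100 counts; coloured points with SE bars passed the test. Rpl13 is above 0 in BSA against Control and below 0 in both Taxinine comparisons, and Rpl7l1 is below 0 in BSA against Control, while the other members lie close to 0.

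Rpl13 (GRCm38 chromosome 8, 123102350 to 123105244, plus strand, 6 exons) was the member whose place in the family changed in all comparisons. Its transcripts made up 131, 138 and 126 of every 10000 family counts in Taxinine, 159, 164 and 182 in BSA and 151, 156 and 140 in Control replicates 1 to 3. All Taxinine values were below all Control values, and all BSA values were above them. Relative to the family it fell by 0.36 ± 0.06 on the log2 scale in Taxinine against BSA (edgeR adjusted p = 0.0012), a call that held in all 9 fits without 1 library (adjusted p at most 0.0199). It rose by 0.18 ± 0.06 in BSA against Control (edgeR adjusted p = 0.0222), which was lost without Control replicate 3 (0.154) or BSA replicate 3 (0.164). In Taxinine against Control it fell by 0.18 ± 0.06 (edgeR adjusted p = 0.0308), which was lost without Control replicate 1 (0.0663) or 2 (0.0707) and without Taxinine replicate 1 (0.0954) or 3 (0.156). Rpl13 hosts an annotated small noncoding RNA and has 6 named pseudogenes. The 10-base pyrimidine run in its window begins at position -16 and ends before the annotated start. Those of Rplp2 and Rps6, members that were not called relative to the family, begin at -5 and -1 and span it.

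Rpl7l1 (chromosome 17, 46773907 to 46782672, minus strand) made up 22.6, 21.3 and 21.1 of 10000 family counts in Taxinine, 19.6, 20.1 and 19.9 in BSA and 22.9, 22.2 and 23.7 in Control libraries. The BSA libraries were below all others. Relative to the family it fell by 0.20 ± 0.06 in BSA against Control (edgeR adjusted p = 0.0146), a call lost without Control replicate 3 (0.0798) or BSA replicate 1 (0.0588). Its TMM-scaled level was 85.5 ± 2.11 CPM in Taxinine, 83.9 ± 3.60 in BSA and 86.2 ± 3.14 in Control, and under that scaling it was not called in BSA against Control (edgeR adjusted p = 0.621). The third member called in BSA against Control on this scale was Rpl27rt, with the few counts given above.

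**Figure D5:**
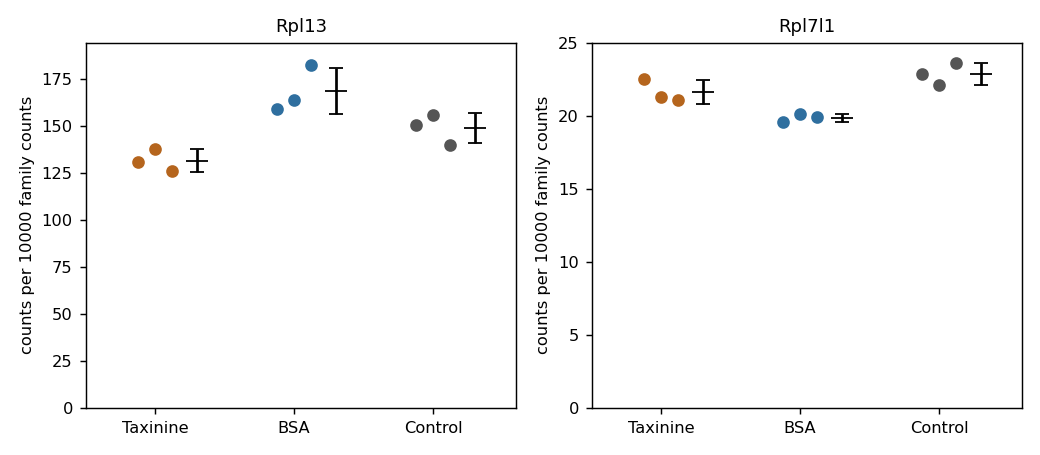
Counts of Rpl13 and of Rpl7l1 per 10000 counts of the family in each Taxinine, BSA and Control library (points), with mean and SD. Rpl13 is highest in the 3 BSA libraries (159 to 182) and lowest in the 3 Taxinine libraries (126 to 138), and Rpl7l1 is lowest in the 3 BSA libraries (19.6 to 20.1).

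Within the family, small shifts in the Taxinine comparisons followed transcript length and abundance, a pattern examined after the data were seen. Over 76 core genes (Rpl24 left out), Spearman's rho between the log2 fold change relative to the family and transcript length was -0.09 in BSA against Control, 0.47 in Taxinine against BSA and 0.51 in Taxinine against Control. With mean count it was 0.11, 0.49 and 0.63. In single libraries, rho between transcript length and a gene's deviation from its mean over the 9 libraries was 0.36, 0.47 and 0.33 in Taxinine. It was -0.23, -0.24 and -0.17 in BSA and varied more in Control, at -0.10, -0.44 and 0.07 (replicates 1 to 3). The genes share their libraries and their common total, and longer transcripts also give more counts, so these are descriptions. The 38 core genes shorter than the median of 740 bases held 34.0, 33.7 and 34.0% of these counts in Taxinine, 34.4, 34.4 and 34.3% in BSA and 34.5, 34.8 and 34.3% in Control replicates 1 to 3. All Taxinine shares were below all others, by less than 2 percentage points. Total counts were 8975371, 10945236 and 13829804 in Taxinine, 14005776, 13395131 and 11680348 in BSA and 13712274, 14116976 and 13869250 in Control replicates 1 to 3, and their part in this pattern was not tested.

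Core genes with and without a run of at least 8 bases of C or T in a window had similar medians, given here as a description. The run may lie anywhere in the window, as in Rpl27 (from position -40) and Rps7 (from -29). This split therefore does not separate genes with the TOP motif from those without it. Under TMM scaling the median log2 fold change of the 33 core genes with a run and that of the 23 without were 0.15 and 0.16 in BSA against Control, -0.10 and -0.09 in Taxinine against BSA and 0.05 and 0.04 in Taxinine against Control.

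Other genes of the translation machinery were counted as lists, to be read beside the shares of all genes called. Under TMM scaling these were 34.0% in BSA against Control, 6.98% in Taxinine against BSA and 33.1% in Taxinine against Control. Under total count scaling they were 52.8%, 7.43% and 48.9%, mostly lower in the comparisons with Control. After quantile normalisation they were 33.3%, 6.44% and 33.9%. Of 20 other messages with the TOP motif, mostly elongation and initiation factors, 15 were higher and 0 lower in BSA against Control under TMM scaling (median 0.18), 0 and 1 in Taxinine against BSA (median -0.04) and 13 and 0 in Taxinine against Control (median 0.14). The direction turned with the scaling here too: total counts gave 1 higher and 5 lower in BSA against Control and 0 and 6 in Taxinine against Control, and quantile normalisation 0 and 11, and 0 and 12. At an unadjusted p under 0.05 in edgeR, 0 were lower in either comparison with Control, and 1 was higher and 5 lower in Taxinine against BSA; DESeq2's counts of these calls were 0, 0 and 1. Tpt1, the translationally controlled tumour protein, had 1765 ± 98.9 CPM in BSA against 1352 ± 82.2 in Control (log2 fold change 0.38 ± 0.04, edgeR adjusted p = 3.33e-10; -0.15 after quantile normalisation). Nap1l1, a histone chaperone, had 695 ± 8.24 CPM in BSA against 567 ± 7.87 in Control (0.29 ± 0.04, edgeR adjusted p = 3.01e-08; -0.11 after quantile normalisation), and was not called under total count scaling (0.07, edgeR adjusted p = 0.144).

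Of 76 ribosome biogenesis genes, 30 were higher and 5 lower in BSA against Control (median 0.11 under TMM scaling, -0.12 under total count scaling), 1 and 3 in Taxinine against BSA (median -0.02), and 24 and 4 in Taxinine against Control (median 0.07, and -0.13 under total count scaling). Total counts turned the calls to 7 higher and 35 lower in BSA against Control and 6 and 35 in Taxinine against Control, while quantile normalisation gave 24 and 6, and 16 and 5. Rrp12, an export factor for pre-ribosomes, rose to 69.3 ± 6.87 CPM in BSA against 36.6 ± 1.28 in Control (0.92 ± 0.06, edgeR adjusted p = 7.38e-16). Nop58, a core protein of box C/D small nucleolar particles, rose by 0.54 ± 0.05, and Gtpbp4, a GTPase of large-subunit assembly, by 0.49 ± 0.05 (edgeR adjusted p = 4.8e-13 and 2.62e-11). Fbl, the methyltransferase of the same particles, was lower in Taxinine, at 99.6 ± 4.45 CPM against 119 ± 3.04 in BSA (-0.26 ± 0.05, edgeR adjusted p = 0.00136), as was Nhp2, a protein of the box H/ACA particles (37.7 ± 1.83 against 46.3 ± 2.76 CPM; -0.29 ± 0.07, edgeR adjusted p = 0.00302). Nop56, a core protein of the box C/D particles like Fbl, was higher in Taxinine, at 125 ± 4.65 CPM against 108 ± 2.71 in BSA (0.21 ± 0.05, edgeR adjusted p = 0.00441), a call lost without Taxinine replicate 3 (0.0654).

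Of 14 RNA polymerase I genes, 1 was higher and 3 lower in BSA against Control under TMM scaling (0 and 10 under total count scaling). Taf1c, of the promoter selectivity factor, fell by 0.71 ± 0.10 on the log2 scale, and Polr1d, a subunit shared with RNA polymerase III, rose by 0.29 ± 0.06 (edgeR adjusted p = 5.35e-08 and 0.000252), the second of which was not called under total count scaling (0.06). In Taxinine against BSA edgeR called 0, with 4 higher and 1 lower at an unadjusted p under 0.05, DESeq2 0, and limma on the deposited values 1 higher; in Taxinine against Control 3 were higher and 3 lower (0 and 8 under total count scaling). Of 6 chaperones of ribosomal proteins, 1 was called higher in BSA against Control and 1 higher and 1 lower in Taxinine against Control, but 0 higher and 3 lower in each under total count scaling. In Taxinine against BSA 0 were called, also at an unadjusted p under 0.05, and 0 by DESeq2 or limma.

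Among 17 genes of mTORC1 and TOP message control, 5 were higher and 2 lower in BSA against Control, 4 and 1 in Taxinine against BSA, and 6 and 3 in Taxinine against Control (2 and 10, 4 and 0, and 2 and 8 under total count scaling). In Taxinine against BSA DESeq2 called 1 higher and 0 lower, and limma after quantile normalisation 2 and 0. Both an inhibitor and an activator of the complex were among those that rose. Ddit4, an inhibitor of mTORC1, rose to 121 ± 2.73 CPM in BSA against 61.0 ± 4.65 in Control (0.99 ± 0.05, edgeR adjusted p = 2.24e-19). Rheb, the GTPase that activates mTORC1, rose to 157 ± 11.3 CPM in BSA against 92.9 ± 0.288 in Control (0.76 ± 0.05, edgeR adjusted p = 2.26e-16), and Mlst8, a subunit of the complex, fell to 6.04 ± 0.545 CPM against 10.9 ± 1.16 (-0.84 ± 0.13, edgeR adjusted p = 6.17e-07). Of 17 ribosome quality control genes, 5 were higher and 2 lower in BSA against Control, 2 and 2 in Taxinine against BSA and 7 and 2 in Taxinine against Control (0 and 9, 4 and 1, and 0 and 6 under total count scaling). The genes called under TMM scaling were 41.2% of this list in BSA against Control, 23.5% in Taxinine against BSA and 52.9% in Taxinine against Control. Of all genes 34.0%, 6.98% and 33.1% were called. Ankzf1, which releases peptides from stalled large subunits, fell by 0.51 ± 0.08 in BSA against Control (edgeR adjusted p = 7.43e-07).

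Of the 78 genes for proteins of the mitochondrial ribosome, most that were called under TMM scaling were lower in the comparisons with Control, with 4 higher and 22 lower in BSA against Control (median -0.11), 2 and 0 in Taxinine against BSA (median -0.00) and 1 and 12 in Taxinine against Control (median -0.12). The share called lower was 28.2% in BSA against Control, where 17.8% of all genes were, and 15.4% in Taxinine against Control, where 17.2% were. Under total count scaling the counts were 1 higher and 59 lower in BSA against Control and 1 and 57 in Taxinine against Control, and after quantile normalisation 5 and 11, and 3 and 9. Set against the summed counts of the cytosolic family, 1 of the 78 was higher and 42 lower in BSA against Control. Of all genes 7.14% were higher and 29.8% lower there. In Taxinine against BSA 3 and 0 were called, where 3.10% of all genes were higher and 0.708% lower. In Taxinine against Control 1 and 17 were called, where 8.56% of all genes were higher and 19.1% lower. At an unadjusted p under 0.05, 0 were lower in Taxinine against BSA on this family scale, and 3 under TMM scaling, where DESeq2 called 0. A factor per library leaves the ratio to the family unchanged, but quantile normalisation does not. After it the median log2 fold change in BSA against Control was -0.008 for these genes and -0.18 for the cytosolic members. Mrpl49 and Mrpl44 of the large mitochondrial subunit fell by 0.80 ± 0.09 and 0.69 ± 0.10 in BSA against Control (edgeR adjusted p = 2.02e-09 and 1.07e-07). Mrps6 of the small subunit rose by 0.78 ± 0.12, to 12.4 ± 1.14 CPM in BSA against 7.19 ± 0.487 in Control (edgeR adjusted p = 1.42e-06).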

How the data were processed

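Polyadenylated RNA of 9 libraries in 3 groups was sequenced as read pairs of 101 bases from stranded libraries, per the labels' protocols. Reads were aligned with STAR 2.7.0f to mm10, or GRCm38, and limma 3.11 was used, per the submitters' processing notes; the counting program, its annotation and its strand handling are not stated in these sources. The authors deposited whole-number counts for 15109 genes, and log2 values, which equal log2(CPM + 1) with plain totals to within 5e-05. The depositors' name for the count table calls it TMM-normalised, but it was used as unscaled: each value from 3 to 30 occurred 0.638 to 1.44 times as often as its neighbours, without the empty or doubled values that scaling and rounding leave, and total counts times TMM factors still ranged from 8641747 to 15628507. Every gene has counts in at least 4 libraries.

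Counts were tested mainly by quasi-likelihood in edgeR 4.0.16 (R 4.3.3) with TMM factors, 1 fit over 9 libraries, no replicate term, no filter and Benjamini-Hochberg adjustment over all genes at 0.05. A second fit used the summed counts of the 89 members as library sizes. Alternatives were total count and DESeq2 1.42.0 size factors, quantile normalisation with limma 3.58.1, DESeq2's Wald test, limma on the deposited log2 values, filterByExpr, the replicate number as a block and leaving out each library. CPM use TMM-scaled totals; counting intervals cover counting error only, since reads carry no molecular identifiers.

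The members and lists were chosen with earlier results of these data known. Named genes are the paralogs with their core partners, 12 genes of known role, up to 4 rises and falls per comparison among members called in the family fit with a mean of at least 100 counts, the 5 highest and 5 lowest members per kb and up to 3 genes with the smallest p per list. Coordinates and lengths are from GENCODE M21, and promoter windows from RefSeq (GRCm38.p6).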

Additional observations from a re-analysis of the deposited data

How the results depend on the processing

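The direction of the family in both comparisons with Control rests on the scaling, and differs between total counts or quantiles and scalings that centre the typical gene. In BSA against Control the counts of members called higher and lower, 68 and 1, became 0 and 13 with total counts, 3 and 55 after quantile normalisation and 0 and 9 in limma's fit of the log2 table, and the median of 0.16 became -0.067, -0.18 and -0.065. In Taxinine against Control, 10 and 0 became 0 and 68, 1 and 70, and 0 and 64, and the median of 0.05 became -0.15, -0.23 and -0.15. DESeq2's size factors, DESeq2's Wald test, filterByExpr and the replicate block kept the direction, with 70 and 1, 65 and 1, 70 and 1, and 69 and 1 in BSA against Control (median 0.16 to 0.17) and 13, 9, 11 and 10 higher and 0 lower in Taxinine against Control (median 0.050 to 0.056). Of all 15109 genes, total counts, quantile normalisation and limma called 6896, 3126 and 6782 lower in BSA against Control. In Taxinine against Control these settings called 6281, 3157 and 6314 lower, and in Taxinine against BSA 476, 543 and 489. In Taxinine against BSA the 15 lower members became 4 after quantile normalisation (median -0.049) and 9 with limma. Total counts, quantile normalisation and limma gave, in this order, for BSA against Control, -0.019, -0.20 and -0.020 (Rplp0), -0.064, -0.19 and -0.063 (Rps6) and -0.045, -0.26 and -0.043 (Rpl10), and for Taxinine against Control, -0.059, -0.33 and -0.059 (Rpl4) and -0.045, -0.20 and -0.045 (Rplp0). Rpl36al in BSA against Control gave -0.0095 with total counts and -0.0083 with limma. Quantile normalisation turned Rpl13 (-0.082), Tpt1 (-0.15) and Nap1l1 (-0.11) below 0 in BSA against Control. The causes were not tested. Of 512 values of 33 single-gene results under the alternatives, 464 kept direction and call. Of 294 list counts, 198 stayed within 1.5 times; these alternatives were added after the data were seen.

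Leaving out 1 library gave 46 to 78 members higher and 0 to 1 lower in BSA against Control (median 0.12 to 0.21), 0 to 1 and 4 to 34 in Taxinine against BSA (median -0.14 to -0.07) and 2 to 28 and 0 to 1 in Taxinine against Control (median 0.020 to 0.098). Relative to the family total the counts were 0 to 1 higher and 0 to 2 lower in BSA against Control, 0 to 1 higher and 1 lower throughout in Taxinine against BSA, and 0 higher throughout and 0 to 2 lower in Taxinine against Control. Deviations of same-numbered libraries correlated by -0.20 to 0.11. With 3 libraries a group, such correlations cannot exclude that the replicate number pairs the samples. With the number as a block, the Rpl13 call in Taxinine against Control relative to the family was lost (adjusted p = 0.0501), leaving 0 members lower. Depth limits the 9 members under 100 counts.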
